A study of Gallus gallus with 8 samples.

Results

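Wnt signals reach a cell through secreted ligands, and other secreted proteins set how much ligand is free to act. R-spondins act through LGR receptors and keep Frizzled receptors at the cell surface, secreted frizzled-related proteins and WIF1 bind the ligands themselves, and Dickkopf proteins act mostly at the LRP co-receptors. A separate, beta-catenin-independent branch, planar cell polarity, aligns cells within an epithelium, and in the inner ear it sets the orientation of the hair bundles. The genes described here are 6 secreted modulators, RSPO3, FRZB, DKK3, SFRP1, SFRP2 and WIF1, and PRICKLE2, a cytoplasmic protein of the planar cell polarity branch.

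The 7 genes, of 10377 with a symbol on an Affymetrix chicken array, were chosen by name, and every probe set carrying one of the names was taken. This gave 11 of the 38439 non-control probe sets. FRZB appears in the deposited sheet as SFRP3, an older name of the same protein. RSPO3 had 3 probe sets, SFRP1 and PRICKLE2 had 2 each, and the other genes had 1 each.

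RNA came from sensory epithelia of the chick utricle, a balance organ, and of the chick cochlea, the hearing organ, dissected from embryos incubated at 38 °C to embryonic day 20 to 21. Each tissue was measured on 4 arrays, each carrying RNA pooled from 10 to 20 epithelia, and labelling started from 0.08 μg. The labels name neither strain nor sex, and no embryo was treated or carried an allele that they name. Arrays of one tissue are labelled as biological replicates, with no word on what separates them, so p-values measure only the spread between these arrays.

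Values are log2 GCRMA signal as the authors deposited it. A probe set was tested where its log2 signal exceeded 4 on at least 4 of the 8 arrays, and 16223 probe sets were. On each array, 41.0% to 41.8% of all probe sets exceeded 4. Pearson's r between arrays, taken across the tested probe sets, which are not independent of one another, was 0.9776 to 0.9873 for utricle pairs, 0.983 to 0.9913 for cochlea pairs and 0.8573 to 0.8843 for pairs of unlike tissue. With 4 arrays a side, the number of arrays limits the precision.

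Markers of the dissected cells were present in both tissues. Of 16 hair cell markers 9 were tested, and 4 favoured the utricle and 4 the cochlea. Their summed linear signal was 35323 to 40946 on utricle arrays against 16533 to 19252 on cochlea arrays. Such a sum mostly reflects its brightest genes. CALB2, the brightest on utricle arrays, averaged 14.70 on the log2 scale there against 8.77 in the cochlea. CIB2, the brightest on cochlea arrays, averaged 13.50 there against 11.17 in the utricle. Of 14 supporting cell markers 12 were tested, and 6 favoured the utricle and 5 the cochlea (121654 to 125131 against 110083 to 119220). Over all 6528 named genes tested, limma called 52.9% at an adjusted p under 0.05, 26.6% toward the utricle and 26.3% toward the cochlea. The marker counts are read beside these shares, and a few calls in a short list do not set it apart. Markers of other cells had calls too. Of 17 fibroblast and mesenchyme markers 5 were tested, 2 were higher in the utricle and none in the cochlea. Their summed linear signal was 4431 to 6252 on utricle arrays against 461 to 2025 on cochlea arrays. VIM, the brightest of them in the utricle, averaged 12.0 there against 9.0 and was called, as was COL6A3 (6.7 against 5.8). COL1A2, COL3A1 and DCN were not called, and their arrays overlapped. LUM, PDGFRA, POSTN and TWIST1 did not pass the filter. Of 7 melanocyte markers 3 were tested and all 3 were higher in the utricle (4567 to 5765 against 1181 to 1663), while TYR, TYRP1 and MLANA did not pass. That sum mostly reflects KIT, at 12.06 in the utricle against 10.12 in the cochlea. MITF averaged 9.70 against 8.05, and DCT was dim, at 4.59 against 2.79. Of 13 cartilage and bone markers 6 were tested, with 2 higher in each tissue (16352 to 20996 against 6791 to 13708), and MATN1, COMP and RUNX2 did not pass. Of 8 leukocyte markers 3 were tested, all higher in the utricle (3992 to 4901 against 1639 to 2190), and PTPRC did not pass. Of 13 neuronal markers 7 were tested, of which 2 favoured the utricle and 4 the cochlea (3990 to 5783 against 21896 to 26696). SYT1 and STMN2 did not pass. The cochlea sum mostly reflects ISL1 and NEFM, which averaged 13.86 and 12.83 there against 11.90 and 2.59 in the utricle. NEFL and NTRK2 were also higher in the cochlea, SNAP25 and NTRK3 were higher in the utricle, and ELAVL4 was not called. Of 10 muscle markers 2 were tested, both higher in the cochlea (533 to 1135 against 1596 to 2399), and DES and MYOD1 did not pass. Of 10 endothelial markers 3 were tested, of which 1 favoured the utricle and 2 the cochlea (1789 to 2701 against 1934 to 2424), and CDH5, KDR, TEK and VWF did not pass. Of 8 erythrocyte markers 2 were tested and neither was called (604 to 14477 against 563 to 22286), and of 8 markers of dark cells and transitional epithelium 3 were tested and 1, SLC26A4, was higher in the utricle (1085 to 1625 against 824 to 1322). JAG1, ACAN, DCT, NTRK3 and SLC26A4 passed the filter with their 4 utricle arrays alone, and NEFM and NTRK2 with their 4 cochlea arrays alone. CLDN5, an endothelial marker, passed with its 4 cochlea arrays and 1 utricle array. The filter itself thus selected these for a difference, and their calls are descriptions. The part of these cells in the differences below was not tested. In bulk RNA, fewer cells of a type and less RNA per cell cannot be told apart.

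All 7 genes differed between the tissues, and the secreted frizzled-related proteins among them went both ways. RSPO3, PRICKLE2, FRZB and DKK3 were higher in the utricle, and SFRP1, SFRP2 and WIF1 were higher in the cochlea. Of the 11 probe sets 9 passed the filter, and limma called all 9 at an adjusted p under 0.05, 5 toward the utricle and 4 toward the cochlea. Over all probe sets tested, 51.5% were called, 26.4% toward the utricle and 25.1% toward the cochlea. Counted by gene, all 7 were called, beside 52.9% of the 6528 named genes with a tested probe set. The 4 arrays of one tissue lay wholly above the 4 of the other for all 9, as they did for 48.7% of all probe sets tested. One RSPO3 probe set passed the filter with its 4 utricle arrays alone, and WIF1 passed with its 4 cochlea arrays and 1 utricle array, so the filter itself selected these for a difference. The members were also chosen with earlier results of these data known. The 9 calls are therefore a description and are not weighed as support for one another.

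**Figure D1:**
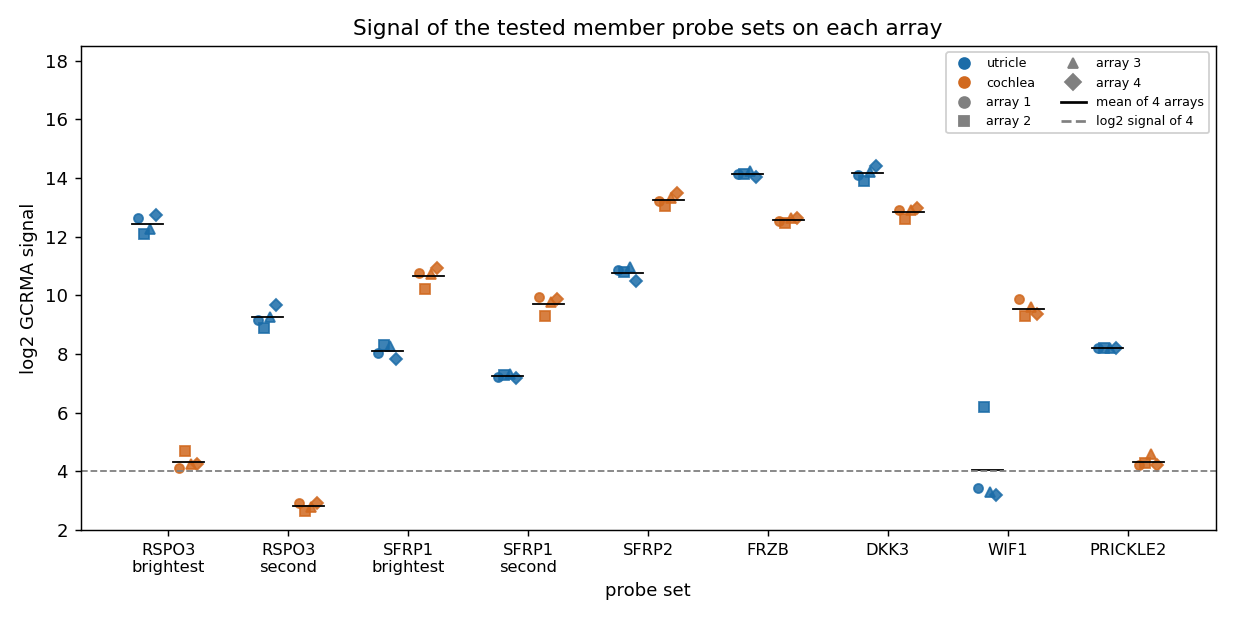
Log2 GCRMA signal on each of the 8 arrays for the 9 tested probe sets of the 7 genes, with blue for the utricle, orange for the cochlea, a marker shape for each array number and a black line at the mean of 4 arrays. The tissues do not overlap at any of the 9, and WIF1 on utricle array 2, at 6.18, lies apart from the other utricle arrays.

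RSPO3 encodes the only activator among the secreted members, an R-spondin that amplifies Wnt signals. Its brightest probe set read 12.65, 12.10, 12.26 and 12.73 on utricle arrays 1 to 4 and 4.10, 4.71, 4.25 and 4.25 on cochlea arrays 1 to 4. Every utricle array was thus far above every cochlea array, and all cochlea arrays lay just above the filter limit of 4. The means were 12.43 ± 0.30 and 4.33 ± 0.27 (mean ± SD over n = 4 arrays, as throughout). The log2 difference of 8.11 (95% confidence interval of the limma fit 7.69 to 8.52) is a 275-fold higher signal in the utricle (206 to 368), with an adjusted p of 1.11e-08 in limma. It was the 5th largest fitted difference toward the utricle among all probe sets tested, with values under 4 left as they were. The 275-fold size rests on cochlea values close to the filter limit, and the second probe set gave a smaller difference.

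The second RSPO3 probe set read 9.17, 8.89, 9.27 and 9.68 on the utricle arrays and 2.93, 2.64, 2.80 and 2.93 on the cochlea arrays. All cochlea values lay under 4, so the fold is a lower bound, with array values under 4 raised to 4. Such a bound, here and below, concerns that floor only and is not a lower confidence limit. RSPO3 was higher in the utricle by at least 38.0-fold by this probe set (limma adjusted p = 1.93e-08). With values under 4 left as they were, the fitted log2 difference was 6.43 (6.05 to 6.80). That interval lies below the 7.69 to 8.52 of the brightest probe set, so the 2 probe sets share a direction but not a size. The third RSPO3 probe set read 2.22, the lowest signal on the arrays, on all 8 and was not tested, so it gives no level in either tissue. In the authors' deposited table, RSPO3 was called present on 4 utricle and 3 cochlea arrays by the brightest probe set, and on 4 and 0 by the second. The SAM folds in the authors' deposited table are 298.65 and 83.53 for these probe sets.

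FRZB encodes a secreted frizzled-related protein, a decoy that binds Wnt ligands through a domain like that of the Frizzled receptors. It read 14.15, 14.12, 14.23 and 14.04 on utricle arrays 1 to 4 and 12.52, 12.48, 12.64 and 12.63 on cochlea arrays 1 to 4. All 8 arrays were bright, the utricle arrays without exception the brighter. Each tissue spanned at most 0.2 on the log2 scale, the narrowest spread in the cochlea among the members. FRZB was 2.96-fold higher in the utricle (2.60 to 3.37), at 14.14 ± 0.08 against 12.57 ± 0.08 (limma adjusted p = 1.05e-06).

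DKK3 encodes a divergent member of the Dickkopf family, whose effect on Wnt signalling varies with the cell type studied. It read 14.11, 13.91, 14.21 and 14.42 on the utricle arrays and 12.91, 12.59, 12.92 and 12.98 on the cochlea arrays. The lowest utricle array remained above the highest cochlea array. DKK3 was 2.48-fold higher in the utricle, at 14.16 ± 0.21 against 12.85 ± 0.18, a log2 difference of 1.31 (1.01 to 1.62; limma adjusted p = 5.49e-05).

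SFRP1 and SFRP2 encode secreted frizzled-related proteins of the same family as FRZB, and their difference had the opposite direction. The brightest SFRP1 probe set read 8.05, 8.30, 8.28 and 7.84 on utricle arrays 1 to 4 and 10.77, 10.21, 10.71 and 10.93 on cochlea arrays 1 to 4. SFRP1 was therefore detected in both tissues, with every cochlea array the higher. The signal was 5.80-fold higher in the cochlea (4.42 to 7.61), at 10.65 ± 0.31 against 8.12 ± 0.21 (limma adjusted p = 4.66e-06).

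The second SFRP1 probe set gave nearly the same difference, 5.52-fold, at 9.72 ± 0.30 in the cochlea against 7.25 ± 0.06 in the utricle (limma adjusted p = 2.02e-06). Both SFRP1 probe sets were lowest on array 2 among the cochlea arrays, at 10.21 and 9.28. In the authors' deposited table, the SAM folds toward the cochlea are 6.32 and 6.03 for the brightest and second SFRP1 probe sets.

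SFRP2 read 10.85, 10.78, 10.97 and 10.50 on the utricle arrays and 13.20, 13.03, 13.30 and 13.48 on the cochlea arrays. No utricle array reached the lowest cochlea array. SFRP2 was 5.57-fold higher in the cochlea (4.51 to 6.87), at 13.25 ± 0.19 against 10.77 ± 0.20 (limma adjusted p = 1.19e-06).

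The sizes of the shifts within each direction were compared as log2 ratios of 2 genes on the same array, for 2 pairs of genes chosen after their values were seen. The SFRP1 to SFRP2 ratio averaged -2.66 in the utricle and -2.60 in the cochlea, a change of -0.06 (two-sided exact permutation test over 8 arrays, p = 0.6, Benjamini-Hochberg adjusted p = 0.6). The 95% intervals of the SFRP1 and SFRP2 differences, -2.93 to -2.14 and -2.78 to -2.17, overlapped. The FRZB to DKK3 ratio averaged -0.03 in the utricle and -0.28 in the cochlea, a change of 0.25 (exact permutation p = 0.114, adjusted p = 0.228). Neither test detected unequal shifts, which does not show that they were equal.

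WIF1 encodes Wnt inhibitory factor 1, a secreted protein that binds Wnt ligands through a domain of its own type. It read 9.87, 9.28, 9.61 and 9.36 on cochlea arrays 1 to 4. On utricle arrays 1, 3 and 4 it read 3.44, 3.30 and 3.20, all under 4, while utricle array 2 read 6.18. The tissues did not overlap, and the utricle mean of 4.03 ± 1.44 reflects the one higher array.

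The cochlea mean of WIF1 was 9.53 ± 0.27. Its signal was higher there by at least 31.6-fold, and the fitted log2 difference was -5.50 (-6.92 to -4.09; limma adjusted p = 0.000104). Without utricle array 2 the bound was at least 46.2-fold, and without both arrays numbered 2, an alternative chosen after seeing the data, it was at least 48.9-fold. In the authors' deposited table, WIF1 was called present on 2 utricle and 4 cochlea arrays, with a SAM fold of 47.93 toward the cochlea.

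PRICKLE2 encodes a cytoplasmic protein with LIM domains that works with Vangl proteins in planar cell polarity. In the mouse, the Prickle2 protein lies at one side of each cell in the vestibular epithelia. The brightest chick probe set read 8.22, 8.21, 8.22 and 8.20 on the utricle arrays and 4.21, 4.27, 4.59 and 4.23 on the cochlea arrays. The utricle arrays were nearly equal, with an SD of 0.007, and the cochlea arrays all lay just above the filter limit.

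PRICKLE2 was 14.8-fold higher in the utricle (12.6 to 17.3), at 8.21 ± 0.007 against 4.32 ± 0.18, a log2 difference of 3.89 (3.66 to 4.11; limma adjusted p = 1.93e-08). The second PRICKLE2 probe set read 2.22 on all arrays and was not tested. In the authors' deposited table the SAM fold of PRICKLE2 is 13.99, with present calls on all 4 arrays of each tissue, those in the cochlea included.

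Since the tissues do not overlap, a two-sided exact permutation test over the 8 arrays gives each of the 9 the smallest p that the 70 labelings of 4 against 4 allow, 0.0286, and adds nothing to that separation. If arrays of one number are taken as pairs, the 16 sign assignments allow no exact p under 0.125. The authors' deposited table lists the SAM q-value of each of the 9 as 0%. The size of the log2 difference varied between pairs of arrays with the same number, while its sign is fixed by the separation. For RSPO3 it ranged from 7.38 to 8.55 over the 4 pairs, for PRICKLE2 from 3.63 to 4.00, for FRZB from 1.40 to 1.64 and for DKK3 from 1.20 to 1.44. Toward the cochlea, it ranged from -3.08 to -1.92 for SFRP1 and from -2.98 to -2.25 for SFRP2. WIF1 differed by 3.10 in the pair numbered 2 and by at least 5.36 to at least 5.87 in the other pairs, with utricle values under 4 raised to 4.

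**Figure D2:**
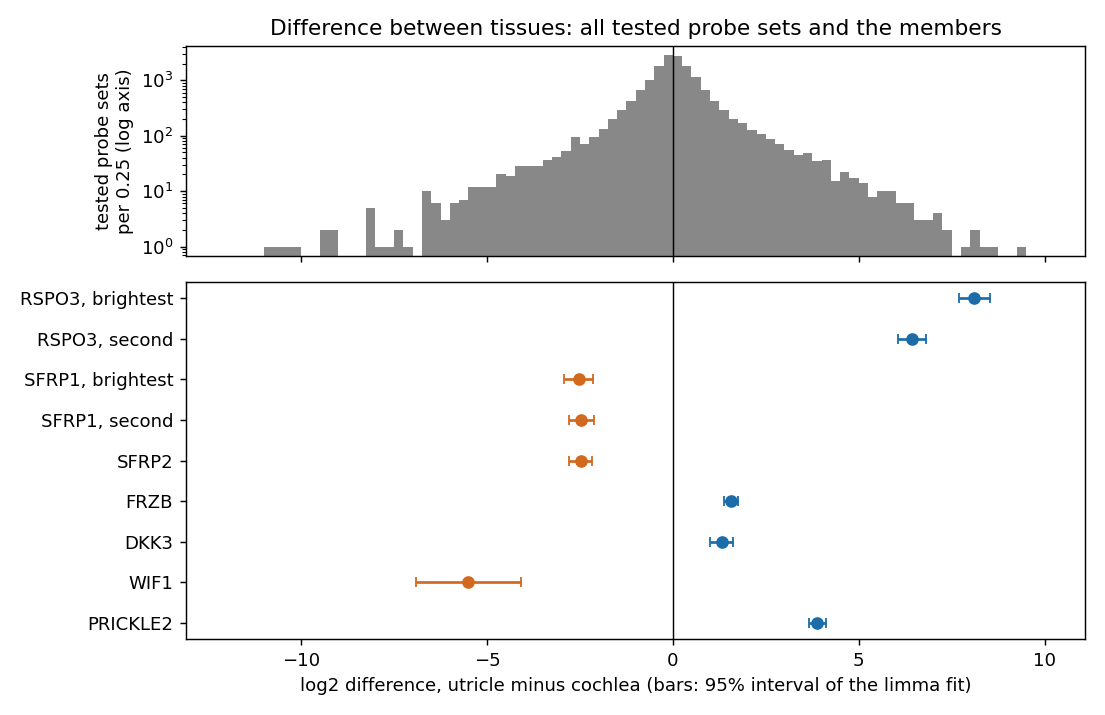
The upper panel is a histogram of the log2 difference, utricle minus cochlea, of the 16223 tested probe sets in equal steps, on a log count axis. The lower panel has the differences of the 9 member probe sets with bars for the 95% intervals of the limma fit, from 8.11 for RSPO3 to -5.50 for WIF1, and none of the intervals reaches 0.

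The median difference over all tested probe sets was 0.01, on values whose distributions the authors' normalization had made alike. RSPO3, WIF1 and PRICKLE2 lay in the tails of the distribution of differences, with PRICKLE2 the 178th largest toward the utricle. WIF1 is given no rank, since its difference is a bound. The ranks are of fitted differences, and some ranked above PRICKLE2, such as that of the second RSPO3 probe set, are bounds too. SFRP1 and SFRP2 ranked 420 and 445 toward the cochlea. FRZB and DKK3, with ranks of 1046 and 1331 toward the utricle, were within the range that many probe sets shared.

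Within a tissue, most members shared the array on which they were lowest. Among the cochlea arrays, array 2 was the lowest for SFRP1, SFRP2, FRZB, DKK3 and WIF1, and array 1 was the lowest for RSPO3 and PRICKLE2. Among the utricle arrays, array 4 was the lowest for SFRP1, SFRP2, FRZB, WIF1 and PRICKLE2, and array 2 for RSPO3 and DKK3. Members of opposite direction thus shared their lowest array. The FRZB and PRICKLE2 gaps between utricle arrays were small, at most 0.20 and 0.01. WIF1 read 3.44, 3.30 and 3.20 on utricle arrays 1, 3 and 4, all under 4, so its lowest utricle array carries no information. No share over all tested probe sets is given beside these counts, so they are not read as particular to the members.

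**Figure D3:**
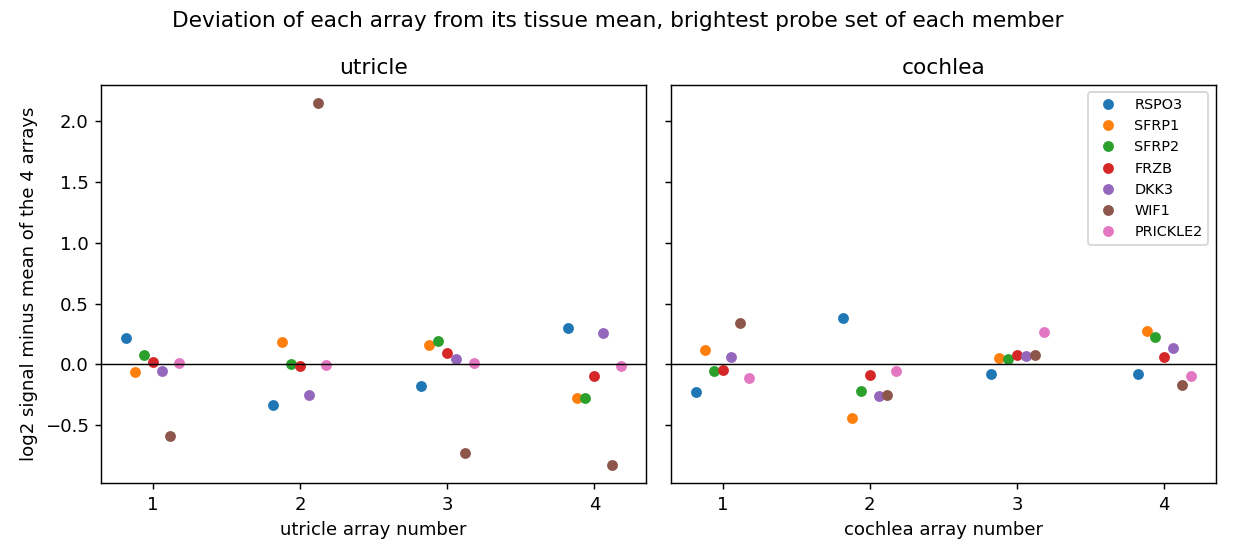
Log2 signal on each array minus the mean of the 4 arrays of that tissue, for the brightest probe set of each of the 7 genes, with the utricle on the left and the cochlea on the right. WIF1 on utricle array 2 is the only point above 2, and 5 of the 7 genes have their lowest cochlea value on array 2.

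Among other genes with large differences, the arrays numbered 2 lay toward the opposite tissue on average, though not every member did so. Probe sets at least 16-fold higher in a tissue were taken here by the fitted difference, with values under 4 left as they were. For 152 other probe sets at least 16-fold higher in the cochlea, each array was compared with the mean of its tissue's other arrays. Utricle array 2 lay 0.36 above that mean on average and was the highest utricle array for 41.4%. Cochlea array 2 lay 0.20 below the mean of the other cochlea arrays and was the lowest for 42.8%. Among 161 probe sets at least 16-fold higher in the utricle, cochlea array 2 lay 0.21 above the other cochlea arrays. It was the highest of them for 38.5%. Utricle array 2 lay only 0.09 below the other utricle arrays for the 161, near the 0.08 of utricle array 1, and was the lowest for 41.6%. Other arrays deviated by similar amounts, away from the opposite tissue. Utricle array 4 lay 0.27 below the other utricle arrays for the 152 probe sets. Cochlea array 1 lay 0.25 below the other cochlea arrays for the 161, and was the lowest for 46.6%. CALB1, a calcium-binding protein, read 7.47 and 6.89 on utricle arrays 2 and 3 against 2.49 and 2.50 on arrays 1 and 4, with 15.33 to 15.42 in the cochlea. WIF1 was not raised on utricle array 3, at 3.30. Whether tissue carried over in the dissection had a part in the WIF1 value on utricle array 2 was not tested.

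Genes whose profiles over the 8 arrays were closest to each member were ranked among 6521 other named genes by the root mean square difference of log2 signal, each profile centred on its own mean. For PRICKLE2 these were TEKT1, a tektin of ciliary microtubules, PCDH20, a protocadherin, and RSPH1, a radial spoke protein, at 0.105, 0.108 and 0.139. For SFRP1 they were TAOK3, COL9A3 and PENK at 0.162, 0.163 and 0.176, and for SFRP2 they were TNNC1, PPP2R3A and PENK at 0.123, 0.148 and 0.150. PENK, the precursor of enkephalins, was among the 3 closest to both.

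For FRZB the closest were GNG10, ME3 and CKS1B, at 0.085, 0.105 and 0.106, and for DKK3 they were CTSC, EFHC2 and DFFB, at 0.098, 0.119 and 0.121. RSPO3 and WIF1 had no neighbour as close. The nearest to RSPO3 were RASD2 at 0.437, OTOL1, the otolith protein otolin, at 0.546, and PLXNA4, a semaphorin receptor, at 0.582. For WIF1 they were HEBP1 at 0.524, LRP2, an endocytic receptor listed here among supporting cell markers, at 0.570 and NEXN at 0.589. With tissue differences this large, the measure mostly reflects a difference of similar size.

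The rest of the Wnt pathway was read from a list of 108 genes in 7 roles, without the members, chosen with earlier results of these data known. Of these, 83 had a probe set with their name and 45 were tested, using the brightest tested probe set of each. Limma called 18 toward the utricle and 13 toward the cochlea, and 14 were not called. These are 40.0% and 28.9% of the 45, beside 26.6% and 26.3% of the 6528 named genes tested. The median log2 difference of the 45 was 0.10, against 0.01 for all named genes. Calls of at least 2-fold numbered 8 toward the utricle and 5 toward the cochlea, 28.9% of the 45 beside 20.4% of all named genes.

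**Figure D4:**
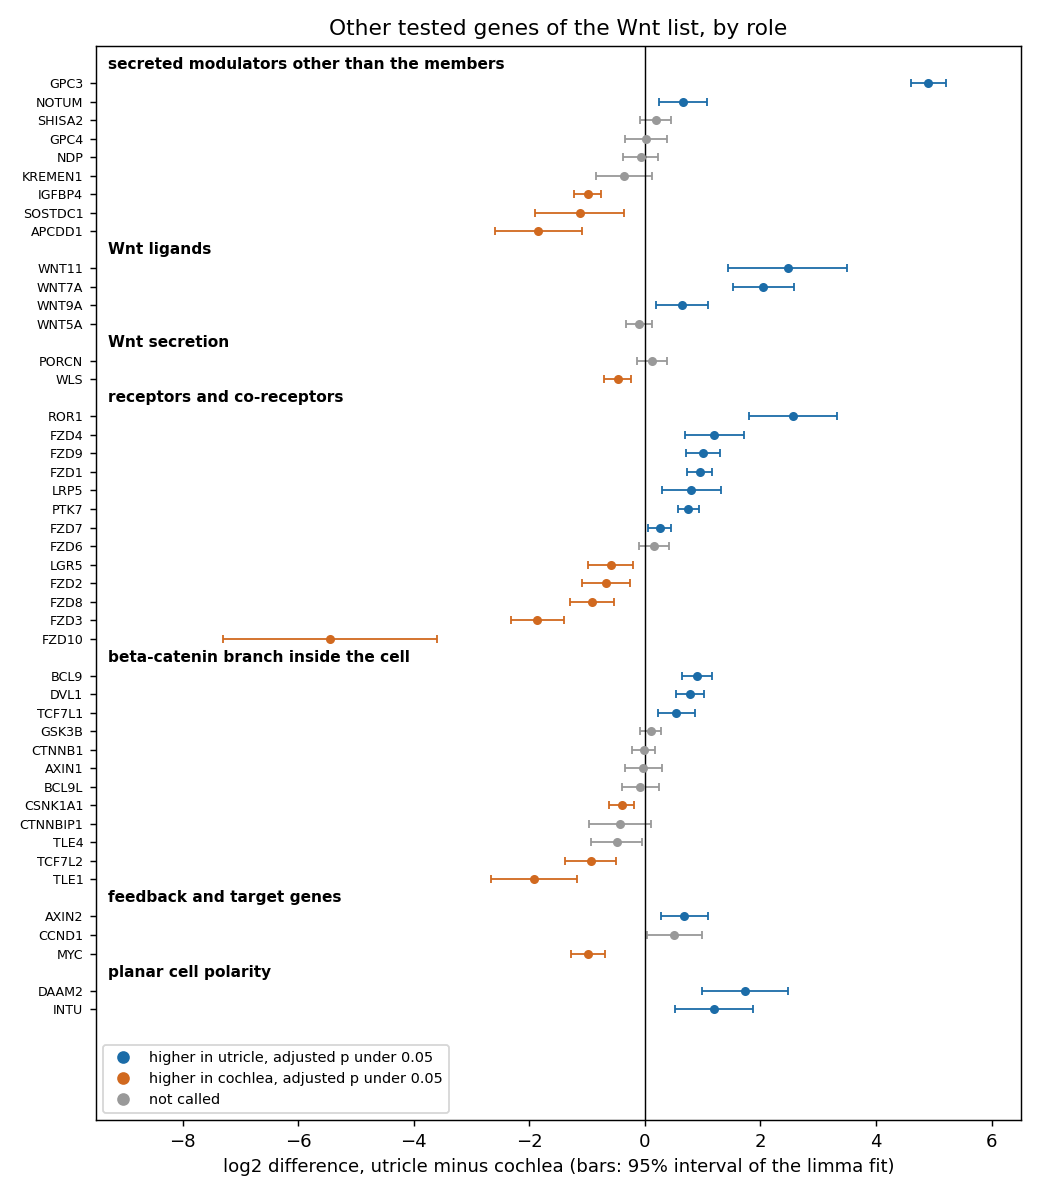
Log2 difference, utricle minus cochlea, of the 45 other tested genes of the Wnt list, grouped by role, with bars for the 95% intervals of the limma fit and blue, orange and grey for higher in utricle, higher in cochlea and not called. GPC3 and FZD10 have the largest differences, at 4.91 and -5.45, and every role with more than 2 tested genes except the ligands holds calls in both directions.

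Among the 9 other modulators tested, not all of them secreted, limma called 2 toward the utricle and 3 toward the cochlea, and 4 were not called. GPC3, a glypican that binds Wnt and hedgehog ligands at the cell surface, read 7.78, 7.50, 7.92 and 8.06 on the utricle arrays and 2.74 to 3.04 on the cochlea arrays. The cochlea arrays were all under 4, and GPC3 was higher in the utricle by at least 14.1-fold (limma adjusted p = 2.60e-08). GPC3 and the ligand WNT11 passed the filter with their 4 utricle arrays alone, so the filter selected them for a difference and their calls are descriptions. APCDD1, a membrane-bound inhibitor of Wnt signals, was 3.60-fold higher in the cochlea, where its arrays read 8.72 to 9.14 against 6.07 to 7.77 in the utricle (adjusted p = 0.00161).

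IGFBP4, a binding protein of insulin-like growth factors that also inhibits Wnt signals, was 1.98-fold higher in the cochlea (limma adjusted p = 6.39e-05). SOSTDC1, a secreted inhibitor of Wnt and BMP signals, was 2.19-fold higher there (adjusted p = 0.022). The SOSTDC1 call was lost with the replicate number as a block (adjusted p = 0.0529), with no filter on low values, and without both arrays numbered 1, utricle array 4, cochlea array 1 or cochlea array 4 (adjusted p = 0.0502 to 0.108). NOTUM, a secreted enzyme that inactivates Wnt ligands, was 1.57-fold higher in the utricle (limma adjusted p = 0.0159), and lost its call with no filter (adjusted p = 0.072). RSPO1 and RSPO2, relatives of RSPO3, and SFRP4, SFRP5 and DKK2 were on the array by name but did not pass the filter.

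Of 20 ligands listed, 13 had a probe set with their name and 4 were tested. Limma called 3 of the 4 toward the utricle, beside 26.6% of all named genes tested. WNT11 among them passed the filter with its utricle arrays alone, so these calls do not set the ligands apart. WNT1, WNT2B, WNT3A, WNT4, WNT5B, WNT6, WNT7B, WNT8A and WNT10A did not pass the filter. WNT7A read 8.36, 7.54, 7.94 and 8.28 on the utricle arrays and 5.45 to 6.29 on the cochlea arrays. The tissues did not overlap, and WNT7A was 4.14-fold higher in the utricle (limma adjusted p = 0.000107). WNT11, a ligand mostly of the beta-catenin-independent branch, was at least 3.10-fold higher there, with 5.80, 6.05, 6.41 and 4.26 against 2.57 to 3.75 (adjusted p = 0.00187). WNT9A was 1.55-fold higher in the utricle (limma adjusted p = 0.0255), with overlapping arrays.

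The WNT9A call was lost under 8 alternatives, with an adjusted p of up to 0.133. These were no filter and the removal of utricle array 2, 3 or 4, of cochlea array 1, 2 or 3, or of both arrays numbered 2. WNT5A was not called, at 9.46 ± 0.17 in the utricle against 9.57 ± 0.05 in the cochlea (adjusted p = 0.386). WLS, which carries Wnt ligands to the cell surface, was 1.39-fold higher in the cochlea (limma adjusted p = 0.00459), and PORCN, which attaches their lipid, was not called. The authors' workbook has a sheet of angiogenesis genes chosen on these samples, which includes WIF1 and some of the ligands, so their direction there is not independent evidence.

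Of 13 receptors and co-receptors tested, limma called 7 toward the utricle and 5 toward the cochlea, and 1 was not called. FZD10 read 10.61, 8.58, 10.11 and 11.07 on the cochlea arrays and 5.95, 3.50, 6.08 and 3.04 on the utricle arrays. The utricle arrays were unlike one another, though all were below the cochlea arrays. FZD10 was higher in the cochlea by at least 33.9-fold (limma adjusted p = 0.000562).

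FZD3, a Frizzled used in planar cell polarity, was 3.63-fold higher in the cochlea (limma adjusted p = 8.33e-05), and FZD8 was 1.88-fold higher (adjusted p = 0.00188). FZD2 was 1.59-fold higher there (adjusted p = 0.013, and 0.0618 with no filter). Toward the utricle, FZD4 was 2.30-fold higher (adjusted p = 0.00188), FZD9 2.02-fold (adjusted p = 0.000216) and FZD1 1.93-fold (adjusted p = 4.66e-05). Frizzled genes therefore had calls in both directions. PTK7, a co-receptor used in planar cell polarity, was 1.68-fold higher in the utricle (limma adjusted p = 8.72e-05).

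FZD7 was 1.19-fold higher in the utricle (limma adjusted p = 0.0332), a call lost under 9 alternatives. Its other tested probe set was not called (difference 0.33, adjusted p = 0.0689). The adjusted p was 0.0608 after quantile normalization and 0.0802 with equal medians. It was 0.0548 to 0.0908 without utricle array 1, 3 or 4, without cochlea array 1, 2 or 4, or without both arrays numbered 1. FZD6 was not called, at 9.69 ± 0.23 against 9.53 ± 0.01. ROR1, a Wnt receptor of the tyrosine kinase type named here after its values were seen, had the largest difference toward the utricle among the receptors, 5.93-fold (adjusted p = 0.000241).

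LGR5, a receptor for R-spondins and a marker of supporting cells in the mouse ear, read 7.31, 6.85, 7.28 and 7.34 on the utricle arrays and 7.57, 7.52, 7.90 and 8.17 on the cochlea arrays. The highest utricle array was below the lowest cochlea array by a narrow margin. LGR5 was 1.51-fold higher in the cochlea (limma adjusted p = 0.0193), the direction opposite to that of RSPO3. The call was lost with no filter (adjusted p = 0.0811) and without cochlea array 3 (0.053). LGR6, RNF43 and ZNRF3, which also take part in the response to R-spondins, and LRP6 did not pass the filter. LGR4 had no probe set with its name. The co-receptor LRP5, named here after its values were seen, was 1.75-fold higher in the utricle (limma adjusted p = 0.0147). Its arrays did not overlap between the tissues, and its call was not followed under the alternatives.

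Inside the cell, 12 genes of the beta-catenin branch were tested, of which limma called 3 toward each tissue, and 6 were not called. CTNNB1, which encodes beta-catenin itself, read 14.19, 14.11, 13.97 and 14.02 on the utricle arrays and 14.15, 14.03, 14.18 and 14.01 on the cochlea arrays. The tissues overlapped fully, with a difference of -0.02 (-0.22 to 0.17; limma adjusted p = 0.844). BCL9, a beta-catenin co-factor, was 1.87-fold higher in the utricle (limma adjusted p = 0.000238), DVL1, which relays the signal from Frizzled receptors, 1.72-fold (0.000315), and TCF7L1, a DNA-binding partner of beta-catenin, 1.45-fold (0.0115).

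Toward the cochlea, TCF7L2, another DNA-binding partner, was 1.91-fold higher (limma adjusted p = 0.0035), CSNK1A1, a kinase that marks beta-catenin for destruction, 1.32-fold (0.00643), and TLE1, a co-repressor, at least 3.41-fold (0.00121). TCF7L1 and TCF7L2 thus had opposite directions. LEF1 and TCF7, the remaining genes of that family on the list, did not pass the filter.

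Of 3 feedback and target genes tested, AXIN2, a widely used target of beta-catenin signalling, read 9.78, 10.48, 10.32 and 10.03 on the utricle arrays and 9.27, 9.49, 9.79 and 9.31 on the cochlea arrays. The lowest utricle array was just below the highest cochlea array. AXIN2 was 1.61-fold higher in the utricle (limma adjusted p = 0.0114), with an adjusted p of 0.0553 with no filter and of 0.0534 without both arrays numbered 2. MYC was 1.98-fold higher in the cochlea (limma adjusted p = 0.000225), and CCND1, a cyclin, was not called (adjusted p = 0.0681), though its other tested probe set was called higher in the utricle (0.0405). The targets did not share a direction.

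Apart from PRICKLE2, both tested genes of the planar cell polarity list were higher in the utricle. DAAM2, a formin that links dishevelled to actin, read 4.61, 5.86, 5.39 and 5.15 on the utricle arrays and 2.78, 4.10, 3.62 and 3.57 on the cochlea arrays, at least 2.34-fold higher (limma adjusted p = 0.0021). INTU, a protein of cilium formation, was at least 2.23-fold higher (adjusted p = 0.00922, and 0.0565 with no filter). Both were dim. DAAM2 exceeded 4 on 5 arrays, its 4 utricle arrays and cochlea array 2. The filter itself thus selected DAAM2 for a difference, and its call is a description. INTU exceeded 4 on 6 arrays, those in the cochlea being arrays 2 and 4, at 4.74 and 4.10. The direction that DAAM2 and INTU shared is therefore not read as one of the whole list. The core genes VANGL1, VANGL2, CELSR1, CELSR3 and PRICKLE1 did not pass the filter, so of the Vangl, Celsr and Prickle genes with a named probe set, PRICKLE2 alone was tested.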

How the data were processed

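RNA of 4 utricle and 4 cochlea samples, grouped by the labelled tissue, was hybridized to Affymetrix chicken arrays, 1 array each. The authors made the deposited log2 values with GCRMA, per the submitters' processing notes and the workbook's own notes, which describe GC-content background correction, quantile normalization and median polish. No version was given in the sources used here. Quantile normalization assumes like distributions in both tissues, and GCRMA gives dim probe sets values near its lowest signal, so folds of dim genes are bounds. The authors' deposited workbook also gives detection calls, SAM fold differences as a ratio and SAM q-values, which are in percent. A further 136 workbook columns of values or calls per array were not used.

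Of 38535 probe sets, 96 controls were left out. Gene names came from the deposited sheet and, for names only, from RefSeq genes of assembly GRCg7b, with 17879 probe sets given a symbol, 39 of them by hand from descriptions. Neither coordinates nor sequences were used. The members and gene lists were chosen with earlier results of these data known.

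The tissue difference was fitted by lmFit and eBayes of limma 3.58.1 (R 4.3.3) as a two-sided test of utricle minus cochlea, with Benjamini-Hochberg adjustment over all 16223 probe sets above a log2 signal of 4 on at least 4 arrays. The threshold for a call was an adjusted p of 0.05. Where an array of the dimmer tissue was under 4, values under 4 were raised to 4 and the fold was written "at least". This wording concerns the floor only and gives no lower confidence limit. Of a gene's tested probe sets the one with the highest mean was used. Named are the members, up to 3 genes per role and direction of the Wnt list with the smallest adjusted p, preset genes including all tested Frizzled genes, and the 3 closest profiles per member. ROR1, LRP5 and CALB1 were named after their values were seen. Tables and plots used Python 3.11.15, pandas 2.3.3 and matplotlib 3.10.9.

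The tissues share replicate numbers. Deviations from the tissue means correlated at 0.552, 0.48, 0.404 and 0.144 for arrays 1 to 4, each above 0.1. On that ground arrays of one number were treated as pairs in the replicate block and in the differences by pair. The main fit, which gave the calls and their intervals, had no block. The labels do not explain the numbers, so the data alone give this pairing, and for cochlea array 4 the correlation with utricle array 3 was higher (0.304). Array names in the workbook carry 2 prefixes, and by their values the arrays numbered 1 are those under one of them. The alternatives were the workbook values, 2 filters, 2 normalizations, dim values raised to 4, eBayes with trend and robust, array weights, the replicate block, the prefix as a block, other probe sets of a gene, and leaving out arrays.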

Additional observations from a re-analysis of the deposited data

Results flagged for a closer look

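Among the 18 groups of 4 arrays formed by the 9 tested member probe sets and 2 tissues, 2 held an array far from the others by Dixon's 95% criterion, which chance meets in about 1 of 20 groups. WIF1 on utricle array 2 read 6.18, with the next utricle array at 3.44, a gap of 0.919 of the group's range. PRICKLE2 on cochlea array 3 read 4.59, with the next cochlea array at 4.27, a gap of 0.861 of a range of 0.37.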

How the results depend on the processing

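All 7 member genes kept their direction and call under every alternative run with a test, with highest adjusted p-values in limma of 6.06e-06 (RSPO3), 0.000257 (SFRP1), 8.63e-05 (SFRP2), 8.45e-05 (FRZB), 0.00119 (DKK3), 0.00242 (WIF1) and 5.30e-06 (PRICKLE2). The RSPO3 difference averaged over its 2 tested probe sets was 7.27, against 8.11 for the brightest. Leaving out arrays gave -6.30 to -5.19 for WIF1 and 7.96 to 8.35 for RSPO3. Probe sets called higher in the utricle numbered 3569 to 4855 against 4286, and higher in the cochlea 3474 to 4583 against 4066. The Wnt list gave 13 to 19 and 9 to 14 calls against 18 and 13. The replicate block changed no call among the members and the Wnt genes named by rule except SOSTDC1 (limma adjusted p = 0.0529). Of 29 called Wnt genes named by rule, 21 kept their call under every alternative in which they were tested. The 8 that lost it are given with their values above. WNT11, TCF7L2, TLE1 and DAAM2, among the 21, did not pass the filter at 6 and were not tested there. ROR1 and LRP5, named after their values were seen, are not among the 29. CTNNB1, not called, changed sign when arrays were left out, from -0.061 to 0.012 (0.012 without utricle array 3 and 0.006 without cochlea array 3). The causes were not tested. Array values under the chosen floor of 4 limit folds of the second RSPO3 probe set, WIF1, GPC3, FZD10, WNT11, TLE1, DAAM2 and INTU to bounds.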
